A study of Mus musculus with 14 samples.

Results

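Complement is a cascade of plasma and tissue proteins, and 8 of its genes were followed here in microglia of single mouse retinas: the C1q chain genes C1qa, C1qb and C1qc, the cascade components C4b, C3 and Cfb, and the anaphylatoxin receptor genes C3ar1 and C5ar1. They were taken by gene symbol from the authors' series-wide table and by identifier from the table of each library, out of 47729 identifiers. All 8 were found, and all 8 were among the 14279 genes left by the filter on low counts. The choice did not use measured values, although it was made with earlier results of these data known.

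Microglia, the macrophages that live in the retina, were sorted as CD11b+, Ly6c-, Fcrls+ cells, and each retina gave 1 library by SMART-Seq2, in which small amounts of mRNA are copied to cDNA over their full length. All 14 libraries came from wild type C57BL/6 mice aged 12 weeks. They formed 4 groups: 3 microbead-injected retinas, called glaucoma in the labels (microbead), 3 retinas of eyes opposite a microbead-injected one (contralateral), 4 sham-injected retinas (sham) and 4 retinas with no treatment (naive). Microbeads in the eye are a model of glaucoma in which drainage of the eye is obstructed, but no eye pressure and no nerve damage was analysed here. The time after injection and the number of mice are not given in the sources used here, so p-values measure the spread between these libraries.

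In the classical pathway, C1q binds a target surface and, through its proteases, cleaves C4 and C2. The resulting convertase cleaves C3, factor B (encoded by Cfb) amplifies that step in the alternative pathway, and the fragments C3a and C5a act on the receptors encoded by C3ar1 and C5ar1. Microglia are a main source of C1q in neural tissue, and C1q and C3 are known for their part in the removal of synapses. In mouse, C4b encodes the complement component C4, and the neighbouring C4a is a close copy of it.

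The shallowest library held 1.34 M reads in genes, the deepest 14 M and the median library 11.5 M, and 10209 to 16584 genes had reads. Microbead 1, the shallowest, and contralateral 2 had reads in fewer than 12000 genes. The sort markers Itgam (CD11b) and Fcrls were read in all 14 libraries, at 281 to 589.8 and 292 to 999.6 CPM (read counts scaled to library size). Levels of 1 gene are compared between libraries as CPM, and levels of different genes as FPKM, which is also divided by transcript length. Changes are log2 fold changes of CPM from edgeR's quasi-likelihood test, with p-values adjusted over all genes tested and a threshold of 0.05.

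C4b is on chromosome 17, from 34728380 to 34743882 on the minus strand (GRCm38, GENCODE M21), and C4a lies at 34809092 to 34823464 on the same strand. Their full-length transcripts (C4b-201, of 5379 bases, and C4a-207, of 5371 bases) were identical at 96.1% of 5367 aligned bases, with a longest identical run of 433 bases. Of all stretches of 75 bases, 23.5% were identical, so that reads from those stretches cannot be assigned to either gene by sequence. The 60 coding bases that hold the most differences, 13, are bases 2761 to 2820 of C4b-201. They are shown because the assignment of reads to C4b rests on such stretches, and capitals mark the bases that differ.
C4b: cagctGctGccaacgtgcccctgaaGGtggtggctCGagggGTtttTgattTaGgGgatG
C4a: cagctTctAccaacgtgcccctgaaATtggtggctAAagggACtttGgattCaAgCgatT

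C4b rose in microglia of microbead retinas. Its level was 939, 930.3 and 459 CPM in microbead 1, 2 and 3. The naive libraries held 11.4, 4.72, 7.16 and 1.64 CPM, the sham libraries 35.9, 97.1, 10.9 and 29.0 CPM, and the contralateral libraries 3.80, 51.4 and 42.1 CPM. All 3 microbead libraries stood above all 11 others, whereas the sham, contralateral and naive ranges overlapped.

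**Figure D1:**
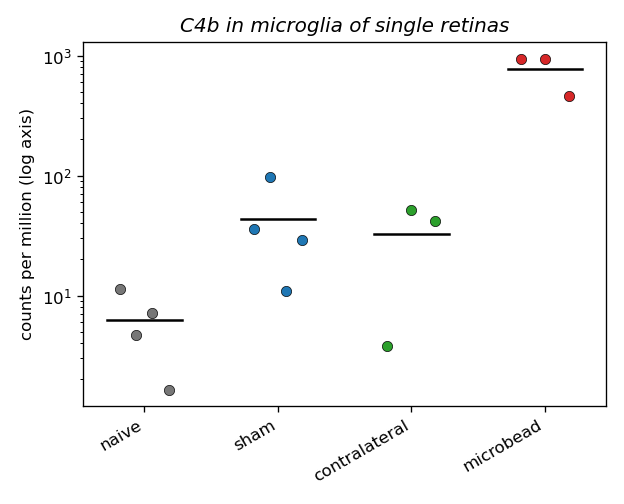
C4b level (CPM, log axis) in each library by group, with a line at the group mean. The 3 microbead libraries lie between 459 and 939 CPM, and the highest of the 11 others is sham 2 at 97.1 CPM.

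Group means of C4b were 776 ± 275 CPM in microbead (SD, n = 3), 43.2 ± 37.4 in sham (n = 4), 32.4 ± 25.2 in contralateral (n = 3) and 6.23 ± 4.11 in naive libraries (n = 4). Against naive the difference was 125-fold, a log2 fold change of 6.97 (SE 0.88, 95% interval 5.11 to 8.83, edgeR adjusted p = 0.00414). This was the only call among the 8 genes in that comparison, in which 0.21% of all genes tested were called. The call was lost without naive 2 (log2 fold change 6.85, adjusted p = 0.0619) and held without each of the other 13 libraries, and over all alternatives the adjusted p ran from 8.14e-35 to 0.0619. In bulk libraries, more cells that express a gene and more RNA per cell cannot be told apart.

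Against sham, C4b had a log2 fold change of 4.17 (SE 0.78, 95% interval 2.53 to 5.81), or 17.9-fold, with an edgeR adjusted p = 0.0664. Against contralateral it had one of 4.58 (SE 0.90, 95% interval 2.69 to 6.46), or 23.9-fold, with adjusted p = 0.0633. These values missed the threshold although the groups did not overlap, and without sham 2 the first was 4.94 (adjusted p = 0.0844). Both passed it in edgeR without microbead 3 (adjusted p = 0.0182 against sham and 0.024 against contralateral), and the first also without contralateral 1, 2 or 3 (0.0247, 0.0434 and 0.0423). DESeq2 called both, with adjusted p = 8.6e-06 against sham and 2.9e-06 against contralateral. So did edgeR with no filter on low counts (1.18e-14 and 5.43e-14) and limma on log2(FPKM + 1) (0.0237 and 0.0323). Limma voom with quality weights called the first (0.000238) but not the second (0.178). Over all alternatives the adjusted p ran from 1.18e-14 to 0.263 against sham and from 5.43e-14 to 0.202 against contralateral. The joint test of any difference among the 4 groups called C4b as 1 of the 8 genes (edgeR adjusted p = 0.00299), where 0.224% of all genes were called.

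Among the control groups the order of the means was sham, contralateral, naive. Sham against naive gave a log2 fold change of 2.80 (SE 0.72, unadjusted p = 0.00111), and contralateral against naive 2.39 (SE 0.75, unadjusted p = 0.00481). Neither passed after adjustment in edgeR with the filter on low counts (adjusted p = 1 and 0.949). With no filter, edgeR called sham against naive (2.82, adjusted p = 1.03e-06). For contralateral against naive the lowest adjusted p over all alternatives was 0.00095. Sham against naive was 2.03 without sham 2 and 1.48 on log2(FPKM + 1). Sham and contralateral differed by less than their spread, with -0.41 for contralateral against sham (SE 0.73, adjusted p = 1). The 3 comparisons with naive share the naive libraries, as those of microbead share the microbead libraries.

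C4a was read at a far lower level, and its order over the microbead libraries was the reverse of that of C4b. It had 2.15, 7.92 and 21.6 CPM in the microbead libraries, and at most 2.87 CPM, in naive 3, elsewhere. No comparison called it, and its log2 fold change against sham was 4.39 (SE 2.38, edgeR adjusted p = 0.557). With the counts of C4a and C4b summed, the log2 fold changes of microbead were 6.83 against naive (adjusted p = 0.00529), 4.17 against sham (0.0663) and 4.59 against contralateral (0.0635), so that the C4b calls stayed on the same side of the threshold.

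The scale changed the spacing of the microbead libraries in C4b, but not their order. In FPKM they stood at 998, 304 and 127 for microbead 1, 2 and 3, because the transcript length that the deposited tables assign to C4b differed between libraries. This length was 1216, 2866 and 3231 bases in microbead 1, 2 and 3, and ran from 803 bases in contralateral 1 to 5379 in sham 2 and naive 2. GENCODE holds, beside C4b-201, a retained-intron transcript of 749 bases (C4b-203) and a nonsense-mediated decay transcript of 763 bases (C4b-202), and a gene's length in such tables is the mean over its transcripts weighted by their estimated abundance. The lowest FPKM among the microbead libraries, 127, was still above the highest elsewhere, 20.1 in sham 2.

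Markers of other cells moved with C4b in part. The summed level of 10 monocyte and macrophage markers was 76.8 to 182 CPM in the microbead libraries, beside 2.68 to 53.9 for contralateral, 3.86 to 95.4 for sham and 2.30 to 13.6 for naive. Of these markers, 4 had 0 reads in all 14 libraries, among them Ly6c2, the gene of the antigen excluded in the sort. The other 6 were read in the microbead group and likewise in the contralateral and sham groups, and 3 were read in the naive group. The sum of 10 Muller glia and astrocyte markers overlapped between groups, at 314 to 473 CPM in microbead and 306 to 697 elsewhere, and Gfap, the intermediate filament of astrocytes, had 0 reads in all 14. The sum of 8 microglia markers was 9370 to 24827 CPM in microbead, 16661 to 27414 in contralateral, 22955 to 25973 in sham and 15323 to 24812 in naive libraries. The sum of 8 markers of border-associated macrophages was lowest in microbead, at 222 to 330 CPM, beside 738 to 1052 in contralateral, 391 to 612 in sham and 377 to 543 in naive libraries. The part of these differences in the C4b result was not tested.

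The genes whose levels followed C4b most closely over the 14 libraries were Cd63, a tetraspanin of lysosomes and endosomes (Pearson r = 0.93 of log2 CPM), Cxcl13, a chemokine (0.88), Cd72, a C-type lectin co-receptor (0.88), Fam149b (0.86) and Bcl2a1b, an anti-apoptotic BCL2 relative (0.85). They were taken from 8110 genes tested with a mean of at least 10 CPM. The points share their groups, so these values mostly repeat the separation of the microbead libraries: Cd63 ran from 664 to 902 CPM in microbead and from 168 to 507 elsewhere, and Cxcl13 from 14.6 to 71.8 CPM in microbead and from 0 to 2.17 elsewhere.

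C1qb, C1qc and C1qa lie next to each other on chromosome 4, on the minus strand, at 136880129 to 136886187, 136889804 to 136893065 and 136895917 to 136898803 (GRCm38, GENCODE M21). Each encodes a chain of the C1q protein. They were by far the most abundant of the 8 genes, with median levels over all libraries of 6730 FPKM for C1qb, 4924 for C1qa and 2659 for C1qc, the 7th, 10th and 23rd highest of the 14279 genes tested. Their summed counts took 1.02 to 1.51% of the reads in genes of a library.

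The promoter of C1qb is shown because C1qb is the highest of the 8 genes. RefSeq promoter entries of GRCm38.p6 were matched for 5 of the 8. The 250 bases before the RefSeq start of C1qb, at chr4:136886201-136886450 on the minus strand, are given 5′ to 3′, with capitals on the PU.1 core GAGGAA, a motif of the macrophage transcription factor PU.1.
C1qb: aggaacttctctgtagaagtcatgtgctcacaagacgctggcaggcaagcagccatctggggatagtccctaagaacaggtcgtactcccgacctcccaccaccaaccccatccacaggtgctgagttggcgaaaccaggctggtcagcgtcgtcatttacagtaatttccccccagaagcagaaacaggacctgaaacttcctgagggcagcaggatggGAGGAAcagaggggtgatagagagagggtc
The core stands at positions -30 to -25 from the start. In C1qc it is found on the other strand, at -193 to -188. On either strand it occurs in 23.3% of 32851 RefSeq windows of the same length, so a match by itself is frequent. The C1qb window held no match to the AP-1 motif TGANTCA, the C/EBP motif TTGCNNAA or the core of the interferon-stimulated response element, all searched on both strands.

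C1qb was at 7403, 8402 and 8718 CPM in microbead 1, 2 and 3. The sham libraries had 5635, 4992.5, 4773 and 4953 CPM, and the naive libraries 4779, 4711.5, 4525 and 4441 CPM. The contralateral libraries were spread widely, at 8608.5, 6646.5 and 4518 CPM. All microbead libraries were above all sham and naive libraries, whereas contralateral 1 was above microbead 1 and 2.

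The mean of C1qb was 8174 ± 687 CPM in microbead (SD, n = 3), 6591 ± 2046 in contralateral (n = 3), 5088 ± 377 in sham (n = 4) and 4614 ± 158 in naive libraries (n = 4). Its log2 fold change was 0.83 against naive (SE 0.20, 95% interval 0.41 to 1.24, edgeR adjusted p = 0.0877), 0.68 against sham (SE 0.20, adjusted p = 0.203) and 0.31 against contralateral (SE 0.22, adjusted p = 0.593). None passed in edgeR with the filter on low counts and all libraries. The first was called in edgeR with no filter (log2 fold change 0.79, adjusted p = 0.00709), and without contralateral 1 (0.0325) or contralateral 3 (0.0279). It was also called by DESeq2 (0.00394) and by limma voom with quality weights (0.00159), and over all alternatives its adjusted p ran from 0.00159 to 0.441. The second was called by DESeq2 (0.0242) and voom (0.00925), with a range of 0.00925 to 0.515. Against the mean of sham and naive, a comparison an earlier analysis added after seeing these data, C1qb rose by 0.75 (SE 0.17, adjusted p = 0.0344). With C4b (5.57, SE 0.63, adjusted p = 0.000693) that made 2 of the 8 genes, where 1.28% of all genes were called.

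C1qa was at 3359, 4530.4 and 5982 CPM in microbead 1, 2 and 3, and at 4277.5, 4604 and 3511 CPM in contralateral 1, 2 and 3. Its control values were close together, 3476 to 3589 CPM in sham and 2962 to 3178 CPM in naive libraries. Microbead, contralateral and sham libraries were each all above the naive libraries, but microbead 1 was below every sham library. The log2 fold change against naive was 0.60 (SE 0.20, edgeR adjusted p = 0.278). Against sham it was 0.38 (SE 0.20, adjusted p = 0.542), and against contralateral 0.16 (SE 0.21, adjusted p = 0.823). Without microbead 3 these became 0.35, 0.13 and -0.01. C1qa was called against naive by DESeq2 (adjusted p = 0.0231) and voom (0.00304), with a range of 0.00304 to 0.682 over all alternatives. Against sham it was called by voom (0.0419, with a range of 0.0419 to 0.922).

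C1qc did not follow the other chains over the 14 libraries. It was at 3727, 1628 and 2539.7 CPM in microbead 1, 2 and 3, at 1786, 2093.5 and 1562.5 CPM in the contralateral libraries, at 1644, 1274, 2916 and 3749.5 CPM in sham 1 to 4, and at 3718, 3537, 3835 and 2723 CPM in naive 1 to 4. The microbead and sham libraries spanned nearly the whole range, and the contralateral libraries all lay below the naive ones. Contralateral against naive gave a log2 fold change of -0.93 (SE 0.33, unadjusted p = 0.0123, edgeR adjusted p = 0.949), and microbead against naive -0.39 (SE 0.33, adjusted p = 0.749). The sign for microbead depended on the reference group, with 0.14 against sham (SE 0.33, adjusted p = 0.959) and 0.54 against contralateral (SE 0.35, adjusted p = 0.563). Over the 14 libraries C1qa and C1qb went together with a Pearson r of 0.81 of log2 CPM, while C1qc had -0.39 with C1qa and -0.27 with C1qb. These points share their groups, and library-wide trends enter them too.

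**Figure D2:**
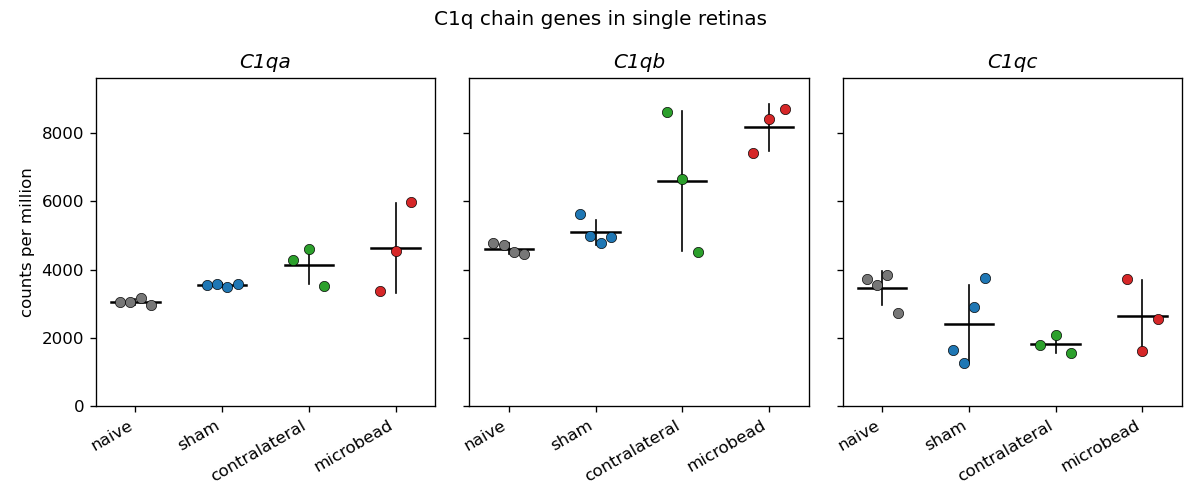
C1qa, C1qb and C1qc levels (CPM) in each library by group, with the mean (horizontal line) and SD (vertical line). C1qb is at 7403 CPM or more in the 3 microbead libraries and at 5635 CPM or less in the sham and naive libraries, whereas C1qc spans 1274 to 3749.5 CPM within sham alone.

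Per transcript length, C1qb made up the largest share of the 3 chains in every library. Its share of their summed FPKM was 53.2% ± 3.67 (SD) for microbead, 51.7% ± 6.07 for contralateral, 46.6% ± 5.23 for sham and 42.4% ± 1.79 for naive libraries. The C1qc share was 27.7% ± 2.63 in naive libraries, where it ran from 23.9 to 29.9%. It was between 10.7 and 14.4% in the contralateral libraries, while the microbead libraries had 23.0, 9.72 and 12.9% and the sham libraries 13.4, 11.5, 23.3 and 27.3%. The microbead and sham libraries thus held both high and low C1qc shares.

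**Figure D3:**
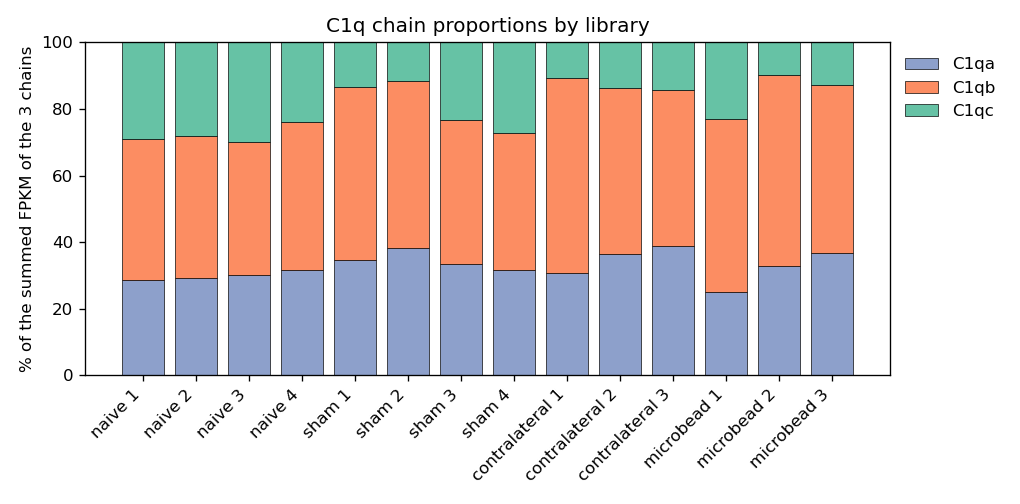
Share of C1qa, C1qb and C1qc in their summed FPKM (%) for each of the 14 libraries. The C1qc share is 23.9 to 29.9% in the naive libraries and 10.7 to 14.4% in the contralateral ones, and differs within microbead and within sham.

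The C1q transcripts are fairly short, with C1qa-201 at 1040 bases, C1qb-201 at 1088 and C1qc-201 at 1203. All lie above the upper length limit of the short genes compared here, so that they are not among those genes. The gap between short and long genes moved in part with the microbead group. Relative to the naive mean, the median log2 CPM of short genes minus that of long genes was 1.90, 0.79 and 1.26 in microbead 1, 2 and 3, and 0.46, 0.87 and -0.28 in the contralateral libraries. It was -0.05 to 0.15 in sham and -0.27 to 0.16 in naive libraries. With a length trend removed from each library, C1qb had 0.65 against naive (edgeR adjusted p = 0.441), 0.54 against sham (0.515) and -0.03 against contralateral (0.984), and C1qa had 0.31, 0.13 and -0.29. For C4b the same removal gave 7.59 against naive (adjusted p = 0.00583), 4.81 against sham (0.158) and 4.52 against contralateral (0.183). C3ar1, with a transcript of 4305 bases, moved up against naive, from 0.35 to 0.87 (edgeR adjusted p = 0.433). Against sham it moved from 0.26 to 0.72 (0.515), and against contralateral from 0.90 to 0.94 (0.334).

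C3, the central component of the cascade, was almost unread in these cells. It lies on chromosome 17 at 57203970 to 57228136, minus strand. Its group totals were 79 reads for microbead, 63 for contralateral, 8.2 for sham and 199 for naive, and 7 of the 14 libraries had 0 reads of it. The reads came from few libraries: 8.59 CPM in microbead 2, 3.97 in contralateral 3, and 11.1 and 9.31 in naive 1 and 3. A count of 0 allows up to 3 reads, which is 0.192 to 2.15 CPM depending on the library, and this limit covers counting error only, since reads are PCR copies without molecular identifiers. The differences between groups were within this spread, with -0.78 for microbead against naive (SE 2.51, edgeR adjusted p = 0.97) and 4.24 against sham (SE 2.66, adjusted p = 0.63). Without microbead 2 these became -5.33 and -0.32. Microbead against contralateral gave 1.08 (SE 2.66, edgeR adjusted p = 0.925), and sham against naive -5.02 (SE 2.69, unadjusted p = 0.0785).

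Cfb, which encodes factor B, was high in 1 library. It is on chromosome 17 at 34856374 to 34862518, minus strand. Microbead 2 had 72.2 CPM, from 647 reads, while microbead 1 had 0 reads and microbead 3 had 2.81 CPM. Elsewhere the highest levels were 8.36 CPM in sham 2 and 6.46 in contralateral 1, and the naive libraries had 0 to 0.90 CPM. Microbead 2 alone set the group mean of 24.995 ± 40.9 CPM. The log2 fold change of microbead was 6.19 against naive (SE 2.34, edgeR adjusted p = 0.362), 3.22 against sham (SE 2.07, adjusted p = 0.64) and 3.49 against contralateral (SE 2.34, adjusted p = 0.576). Without microbead 2 these became 2.08, -0.89 and -0.55. DESeq2 called Cfb against naive (adjusted p = 0.0399, with a range of 0.0399 to 0.773 over all alternatives).

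C3ar1 and C5ar1, receptors for the fragments C3a and C5a, were read in every library. C3ar1 is on chromosome 6 at 122847138 to 122856161, minus strand, and had a median of 101 FPKM. C5ar1 is on chromosome 7 at 16246743 to 16259540, minus strand, with a median of 80.3 FPKM. Their ranges over the libraries, 40.3 to 130 and 24.95 to 149 FPKM, overlapped.

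C3ar1 was at 434, 511 and 471 CPM in microbead 1, 2 and 3, and at 187, 213 and 358 CPM in contralateral 1, 2 and 3. The sham libraries had 411, 392, 448 and 329.6 CPM, and the naive libraries 290.4, 419.65, 457 and 311 CPM. All microbead libraries were above all contralateral libraries, while the other groups overlapped with each other or with microbead. The log2 fold change against contralateral was 0.90 (SE 0.30, 95% interval 0.28 to 1.52, unadjusted p = 0.0068), and it did not pass in edgeR (adjusted p = 0.253) although DESeq2 called it (0.0434, with a range of 0.0434 to 1 over all alternatives). Against naive it was 0.35 (SE 0.27, adjusted p = 0.716) and against sham 0.26 (SE 0.27, adjusted p = 0.855). Contralateral had -0.65 against sham (SE 0.28, unadjusted p = 0.0322, adjusted p = 0.963).

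C5ar1 varied most within the microbead group, at 53.9, 146 and 399.8 CPM in microbead 1, 2 and 3. The contralateral libraries had 173 to 247 CPM, the sham libraries 172 to 262 CPM and the naive libraries 76.9 to 248 CPM, so that the microbead libraries held both the lowest and the highest value of all 14. Its log2 fold change was 0.35 against naive (SE 0.49, 95% interval -0.67 to 1.37, edgeR adjusted p = 0.896), -0.12 against sham (SE 0.49, adjusted p = 0.979) and -0.06 against contralateral (SE 0.52, adjusted p = 0.989). None of these intervals excludes a difference in either direction.

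**Figure D4:**
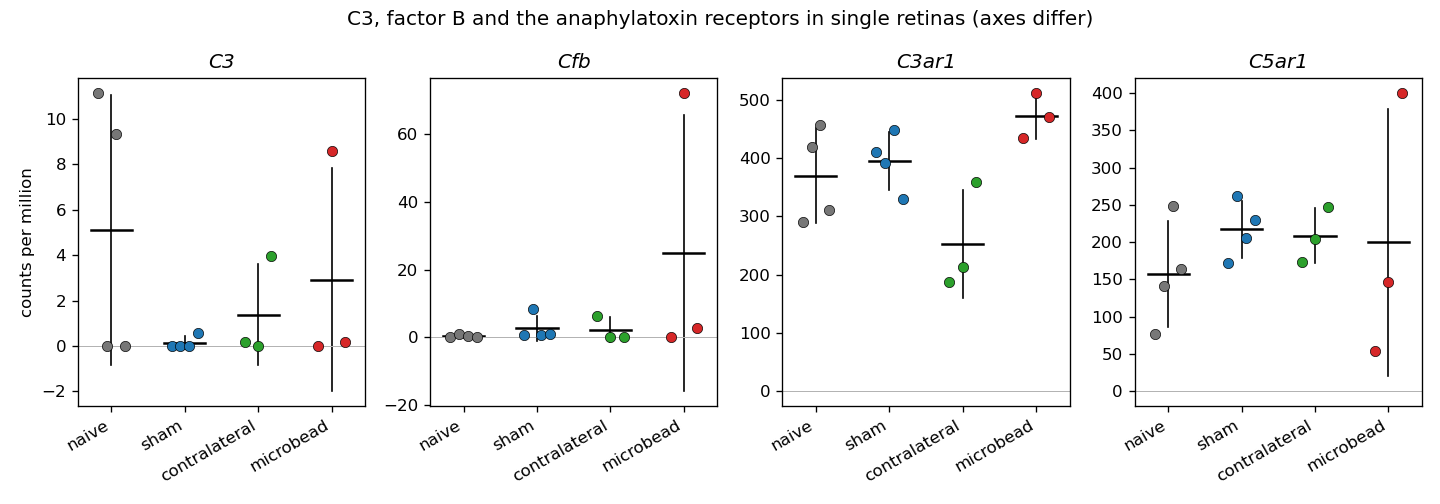
C3, Cfb, C3ar1 and C5ar1 levels (CPM, axes differ) in each library by group, with the mean (horizontal line) and SD (vertical line). C3 is at 0 reads in 7 libraries, Cfb is high in microbead 2 alone, C3ar1 in microbead lies above contralateral, and C5ar1 in microbead runs from 53.9 to 399.8 CPM.

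Counted over the 8 genes, microbead against naive had 1 call in edgeR, 4 with an unadjusted p under 0.05 (10.5% of all genes) and 6 with a positive log2 fold change. DESeq2 called 4 of the 8 there (C4b, C1qa, C1qb and Cfb, with 3.97% of all genes called), voom 3 (1.43%) and limma on log2(FPKM + 1) 1 (0.098%). Of the 8, 3 (C4b, C1qa and C1qb) had groups that did not overlap, all higher in microbead, against 4.85% of all genes. The median log2 fold change of the 8 was 0.47, beside -0.14 over all genes tested. Microbead against sham had 0 calls in edgeR, 2 genes with an unadjusted p under 0.05 (9.75% of all genes) and a median of 0.53, where 0.014% of all genes were called and their median was -0.12. DESeq2 called 2 of the 8 there (3.17% of all genes), voom 3 (0.623%) and limma on log2(FPKM + 1) 1 (0.042%). C4b and C1qb did not overlap between these groups, against 5.11% of all genes higher in microbead without overlap.

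Microbead against contralateral likewise had 0 calls in edgeR, 2 genes with an unadjusted p under 0.05 (C4b and C3ar1, where 11.5% of all genes had one) and a median of 0.72, where 0.028% of all genes were called and their median was -0.08. DESeq2 called 2 there (4.51% of all genes), limma on log2(FPKM + 1) 1 (0.525%) and voom 0 (0.021%). The same C4b and C3ar1 had groups that did not overlap, against 5.2% of all genes. These medians rest on wide intervals for C3 and Cfb, and microbead enters all 3 comparisons.

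**Figure D5:**
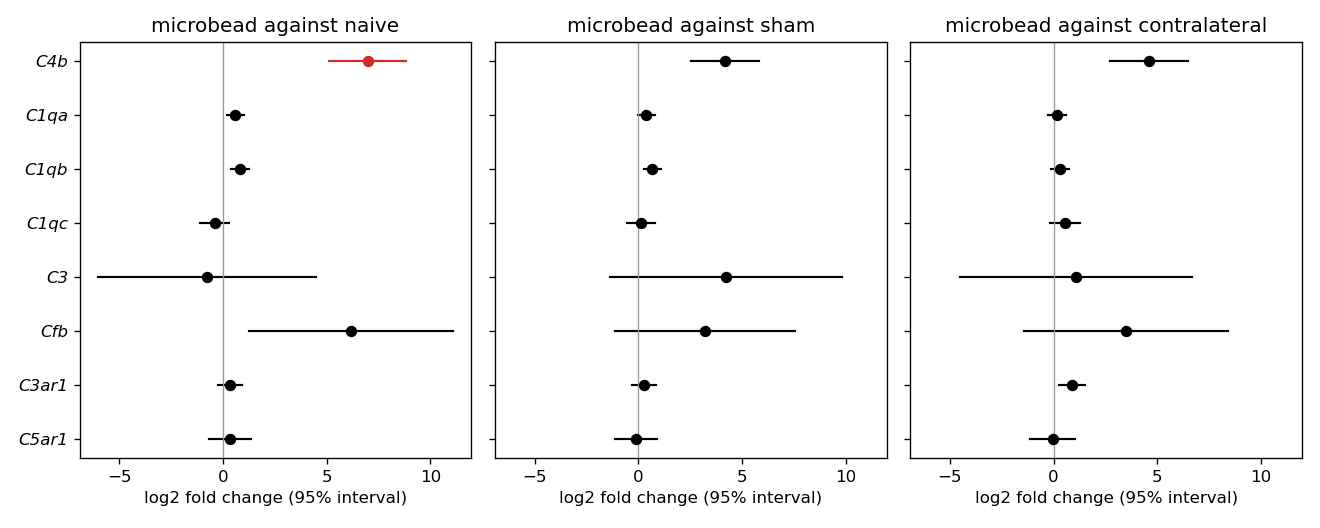
Log2 fold change of microbead against each other group for the 8 genes, with 95% intervals from edgeR. C4b against naive, in red, is the only value past the adjusted threshold, and the intervals of C3 and Cfb are the widest.

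Between the control groups edgeR, with the filter on low counts, called 0 of the 8 genes and 0% of all genes tested. Unadjusted p-values were under 0.05 for 1 of the 8 in sham against naive (C4b), 4 in contralateral against naive (C4b, C1qc, C1qb and C1qa) and 1 in contralateral against sham (C3ar1), against 2.66, 5.18 and 4.86% of all genes. DESeq2 called 1 of the 8, C4b, in sham against naive (adjusted p = 0.0424, with a range of 1.03e-06 to 1 over all alternatives), where 0.182% of all genes were called. It called 0 of the 8 in contralateral against naive (0.448% of all genes) and in contralateral against sham (0.413%), and voom called 0 in all 3. C1qa did not overlap between sham and naive (1.61% of all genes were higher without overlap). In contralateral against naive C1qa was higher without overlap (2.49% of all genes) and C1qc lower (3.73%).

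The rest of the complement system was counted over a list of 55 other genes, of which 21 passed the filter. EdgeR called 0 of the 21 in each of the 6 pairs of groups and in the joint test. Unadjusted p-values were under 0.05 for 5 of them in microbead against naive (10.5% of all genes), 7 against sham (9.75%) and 5 against contralateral (11.5%). DESeq2 called 2, 1 and 2 in the same order (Csmd3 in each, with Calr against naive and Lrp1 against contralateral), where it called 3.97, 3.17 and 4.51% of all genes. It called Csmd3 in the joint test too (3.35% of all genes). With no filter on low counts edgeR called Csmd3 in these 3 pairs and in the joint test, as 1 of 40 genes tested, where 0.631, 0.542, 0.612 and 1.22% of all genes were called. Voom and limma on log2(FPKM + 1) called 0.

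By role, 5 of 16 genes of the classical and lectin pathway passed the filter, 1 of 2 of the alternative pathway, 0 of 7 of the terminal pathway, 3 of 10 soluble regulators, 4 of 10 membrane regulators and 8 of 10 receptors. The terminal genes, which encode C5 to C9, thus had too few reads to be tested. Whether depth or absent expression accounts for this was not tested. Itgam and Itgb2, the subunits of complement receptor 3, averaged 394 and 511 CPM over all libraries, and Cr1l, a membrane regulator of C3 activation, 113 CPM.

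Csmd3, which encodes a large membrane protein with complement control domains, had 7.91 ± 10.1 CPM in microbead (n = 3), 99.4 ± 74.7 in contralateral (n = 3), 72.4 ± 29.1 in sham (n = 4) and 84.9 ± 14.8 in naive libraries (n = 4). Its log2 fold changes were -3.35 against naive (SE 0.80, edgeR adjusted p = 0.0828), -3.12 against sham (SE 0.79, adjusted p = 0.115) and -3.58 against contralateral (SE 0.82, adjusted p = 0.0908). Against the mean of sham and naive, the comparison added after seeing these data, Csmd3 fell by 3.24 (edgeR adjusted p = 0.0393). It was the only gene of the 21 called there, where 1.28% of all genes were called.

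Calr, which encodes calreticulin, a binding partner of C1q, had 399 ± 157 CPM in microbead and 339 ± 112 in contralateral libraries, beside 211 ± 30.1 in sham and 193 ± 35.2 in naive. Lrp1, an endocytic receptor, was highest in contralateral libraries at 1189 ± 512 CPM, beside 493 ± 244 in microbead. C1rl, a protease related to C1r, had 40.9 ± 13.02 CPM in microbead and 6.37 ± 6.65 in sham libraries. None of the 3 passed in edgeR in any pair, with adjusted p from 0.188 for Calr against naive.

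Cd93 and C1ra had 0 reads in all 3 microbead libraries. Cd93, once described as a C1q receptor, averaged 10.8 CPM in sham, 3.80 in contralateral and 1.77 in naive libraries. Its lowest value was 0 CPM in both of the latter groups. The sham mean was at least 78-fold above the 0.138 CPM that 3 reads over the microbead group would give. That limit covers counting error only, and the log2 fold change of Cd93 against sham was -9.80 (SE 3.42). C1ra, a C1q-associated protease, averaged 6.58 CPM in sham, at least 47.7-fold above that limit, but its sham values ran from 0 to 19.96 CPM. In contralateral and naive libraries C1ra averaged 0.171 and 0.925 CPM. Neither passed in edgeR (adjusted p = 0.358 and 0.45 against sham).

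For the other members, the genes that followed most closely over the 14 libraries were taken in the same way as for C4b. The mean of the 3 C1q chains was followed by Dad1 (Pearson r = 0.84), Mrps16 (0.79), Tbcb (0.79), Ndufb10 (0.79) and Trmt112 (0.79). Cfb was followed by Ubald2 (0.85), Map1lc3b (0.845), Atp6v0c (0.835), Stx2 (0.83) and Dennd5a (0.82), and C3 by Specc1 (0.78), Agps (0.68), Fbxl8 (0.68), Pank3 (0.68) and Ifih1 (0.67). The values for Cfb and C3 rest on low counts. As for C4b, the points share their groups. C1qc had a Pearson r of -0.39 with C1qa and -0.27 with C1qb, so the C1q mean does not stand for a pattern shared by the 3 chains.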

How the data were processed

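SMART-Seq2 libraries of sorted retinal microglia were analysed from the deposited tables, 1 per library. The authors' expected counts are estimated reads per gene, not scaled, per the file headers. The deposited FPKM of the same tables and of the series-wide table is scaled by effective length and mapped reads, and the largest difference between those tables stayed under 0.006. The deposited TPM values were not used. Per the submitters' processing notes, Salmon 1.4.0, the build mm10, R 4.0.3 and DESeq2 1.30.1 were used, with no role stated, while the headers follow RSEM's. The program behind the tables and its strand setting are not given in the sources used here.

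Expected counts were rounded and fitted in R 4.3.3 with edgeR 4.0.16: filterByExpr by group with a minimum count of 10 (14279 genes), TMM scaling, glmQLFit (robust) with 1 coefficient per group over all 14 libraries (10 residual degrees of freedom, common biological coefficient of variation 1.13) and two-sided glmQLFTest for 6 pairs and the joint difference. The Benjamini-Hochberg adjustment ran over every tested gene. CPM uses the TMM factors, and was computed here from the authors' expected counts. DESeq2 1.42.0 and limma 3.58.1 gave alternative tests. The procedure was run on simulated data whose spread was capped below the common value given above, so its power in these data was not measured. Total counts of 1.34 to 14 M per library set the precision of low genes.

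All 8 members were tested in every comparison, and the text gives values for part of these tests. Of 55 other complement genes, those called in any test, the 6 with the smallest joint p and C4a were named, together with the 5 genes of highest Pearson r of log2 CPM (prior count 2) with C4b, C3, Cfb and the C1q mean. Members, lists and alternatives were chosen with earlier results of these data known. Coordinates came from GENCODE M21 and promoters from RefSeq, and transcripts were aligned with MAFFT 7.526. No protein sequences were used here. Alternatives were other size factors, filters, tests and units, a replicate block, a fit of the compared groups alone, a rod marker covariate, a length trend removed (lowess, span 0.5), libraries with at least 12000 genes, and leaving out each library.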

Additional observations from a re-analysis of the deposited data

Results flagged for a closer look

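Of 16 sets of 4 libraries (8 genes in sham and in naive), 2 held a library far from the other 3, where chance flags about 1 in 20. C3 was at 0.573 CPM in sham 4, from 8.2 reads, and had 0 reads in sham 1, 2 and 3. With those 3 tied at 0 reads, the chance rate may not apply to this set. Cfb was at 8.36 CPM in sham 2 and between 0.669 and 1.00 CPM in the other 3 sham libraries. Groups of 3, microbead and contralateral, were not tested in this way.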

How the results depend on the processing

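The C4b call against naive held under every alternative except without naive 2, with log2 fold changes from 6.47 to 7.59. Of 48 log2 fold changes, those that changed direction passed the threshold in neither setting, and the cause was not tested. The number of the 8 genes called moved with the test and the filter. With DESeq2 it was 4 against naive, 2 against sham, 2 against contralateral, 1 for sham against naive and 2 in the joint test, where it called 567, 453, 644, 26 and 478 of all 14279 genes. With no filter it was 2, 1, 1, 1 and 3 in that order (162, 139, 157, 14 and 314 of 25656 genes), and 2 for contralateral against naive (21). With voom it was 3 against naive, 3 against sham and 3 in the joint test (204, 89 and 87 of all genes), and with limma on log2(FPKM + 1) it was 1 against sham and 1 against contralateral (6 and 75). EdgeR called 30, 2, 4, 0 and 32 of all genes in the first order. Leaving out single libraries gave 0 to 2 against naive, 0 to 1 against sham, 0 to 1 against contralateral and 1 to 2 in the joint test. The numbers of all genes called in those fits are not given here, so these counts cannot be set beside them.

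Direction changed for the following values. With the replicate block these were C3 in microbead against naive (0.52) and Cfb in contralateral against sham (1.13). With the rod covariate they were C3 against naive (0.37) and C5ar1 against contralateral (0.02). With voom they were C3 against naive (0.14), C5ar1 against contralateral (0.03) and sham (0.02), C1qc against sham (-0.05) and C3ar1 in sham against naive (-0.02). On log2(FPKM + 1) they were C5ar1 against naive (-0.24), C1qc against sham (-0.10), C3 against contralateral (-0.05) and C4b in contralateral against sham (0.31). With the length trend removed they were C5ar1 against sham (0.18), C1qa and C1qb against contralateral (-0.29 and -0.03), and C4b and C5ar1 in contralateral against sham (0.28 and 0.43). With libraries of at least 12000 genes alone they were C5ar1 against contralateral (0.37) and sham (0.30), C1qc against sham (-0.23) and Cfb in contralateral against sham (0.23).

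Leaving out single libraries changed the direction of 15 differences. In microbead the ranges were -0.67 to 0.76 for C5ar1 against naive, -0.23 to 0.44, -0.32 to 7.91, -0.89 to 4.97 and -1.13 to 0.30 for C1qc, C3, Cfb and C5ar1 against sham, and -0.01 to 0.39, -3.48 to 4.83, -0.55 to 7.34 and -1.01 to 0.42 for C1qa, C3, Cfb and C5ar1 against contralateral. They were -0.01 to 0.21 for C3ar1 in sham against naive and -1.18 to 3.81 for Cfb in contralateral against naive. In contralateral against sham they were -0.89 to 0.37, -0.59 to 6.83, -4.15 to 1.49 and -0.20 to 0.04 for C4b, C3, Cfb and C5ar1.

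Same-numbered libraries of different groups did not deviate together (correlations from -0.046 to 0.108), and no label says that a number marks a shared mouse. With the replicate number as a block, C4b against naive had 6.72 (adjusted p = 0.0195), and the number of the 8 genes called was 1, as without it. The filter of at least 50 reads in 3 libraries left Cfb out.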

Other observations

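The ratio of C1qc to C1qa split the libraries across the groups, a pattern noticed after seeing the data. On the log2 scale of CPM it ran from -1.49 to -1.11 in 7 libraries (microbead 2 and 3, contralateral 1, 2 and 3, sham 1 and 2) and from -0.25 to 0.28 in the other 7 (microbead 1, sham 3 and 4, naive 1 to 4). The gap between these ranges was 0.858, and the next largest gap between neighbouring libraries was 0.217. Over the 14 libraries the genes with the highest Pearson r with this ratio were Rac1 (0.865), Emc10 (0.861), Lamp1 (0.825), Snx18 (0.823) and Aars2 (0.756), of 8110 genes searched. All 3 contralateral libraries were on the low side and all 4 naive libraries on the high side, while microbead and sham had libraries on both. The source of the split was not tested.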
